A study of Homo sapiens with 8 samples.

Results

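The mRNAs of 10 ligands of the TNF superfamily were followed in A498 cells, a VHL-mutated cell line established from human clear cell renal cell carcinoma (ccRCC). The ligands were TNF, LTA, LTB, TNFSF9, TNFSF10, TNFSF12, TNFSF13B, TNFSF14, TNFSF15 and TNFSF18, taken by symbol, and all 10 were found among the 59023 genes of the count table. RNA was sequenced from 4 cultures that had received 30 ng/ml IL1β and were harvested after 4 h (replicates 5 to 8) and from 4 untreated cultures (replicates 1 to 4). The paper describes 4 experimental pairs, but the labels do not say which cultures form a pair, so the groups were compared unpaired. All cultures belong to this 1 line, so the results speak for cultured cells of a single origin. The comparison addresses how renal cancer cells themselves respond to IL1β.

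Most ligands of this family are made as membrane proteins that assemble into trimers, and several are released from the cell surface by proteases. They bind receptors of the TNF receptor superfamily on neighbouring cells. Some of these receptors carry a death domain and can start apoptosis, and others recruit TRAF adaptors and switch on NF-κB. Leukocytes are the best known source of many of the ligands, where TNF, LTA and LTB are classical targets of NF-κB, the pathway that the IL1 receptor also engages.

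The named genes held 15409093 to 24000727 counts per IL1β library and 16610473 to 27040505 counts per untreated library, so that 1 count stood for 0.0370 to 0.0649 CPM (counts per 1000000 counts). The CPM used here were corrected with TMM factors, which allow for differences in library composition. The first principal component held 42.7% of the variance and the second 22.4%. On the first, IL1β replicate 5 and untreated replicate 1 lay at -102 and -59.5, apart from the other 6 libraries at 18.8 to 37.2. The largest variation between libraries thus did not follow the treatment. The summed level of 8 genes known to answer to IL1β was 7043 to 10203 CPM in IL1β libraries and 254 to 1695 CPM in untreated libraries, the highest untreated value being that of replicate 4. Of these 8 genes NFKBIZ, CXCL8, ICAM1 and CCL20 passed the test used below (0.929% of all tested genes rose), with log2 fold changes of 3.27, 4.21, 2.73 and 6.98. IL6, TNFAIP3, NFKBIA and BIRC3 did not pass, with log2 fold changes of 3.79, 2.61, 1.78 and 2.21. Their edgeR adjusted p was 0.0847, 0.0617, 0.0902 and 0.0759. All 8 were higher in every IL1β library than in any untreated one (4.6% of all tested genes). GAPDH (0.23) and ACTB (0.32) did not pass. Renal epithelial markers summed to 5578 to 6563 CPM in IL1β libraries and 5164 to 5952 CPM in untreated libraries, with 8 of 9 at 1 CPM or more on average and EPCAM below it. VIM alone held 3313 to 4829 CPM with IL1β and 3753 to 4046 CPM untreated, most of each sum. CDH6 was at 1.40 CPM in IL1β replicate 5 and 4.44 CPM in untreated replicate 1, against 35.0 to 80.5 CPM in the other 6 libraries. Of the renal epithelial list PAX8 passed, at 365.0 to 519 CPM with IL1β and 107 to 220.4 CPM untreated. The 10 leukocyte markers summed to 1.32 to 10.3 CPM in IL1β libraries and 1.93 to 21.4 CPM in untreated libraries, with CD3E and MS4A1 at 0 counts in all 8 and PTPRC at 0.514 CPM or less. LYZ and ITGAM alone of these 10 averaged 1 CPM or more. LYZ had 0 to 6.52 CPM with IL1β and 0.277 to 19.5 CPM untreated, the highest in untreated replicate 1. ITGAM had 1.102 to 3.23 CPM with IL1β and 0.807 to 1.55 CPM untreated (log2 fold change 1.03, unadjusted p = 0.0293, edgeR adjusted p = 0.378). The part of these markers in the ligand levels was not tested. The 5 endothelial markers summed to 1.84 to 5.02 CPM in IL1β libraries and 2.56 to 6.82 CPM in untreated libraries, with none at 0 in all 8.

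The genes lie in several places of hg38, and their neighbours matter for what a count can mean. LTA, TNF and LTB stand side by side on chromosome 6, with 1240 bases between LTA (31572054 to 31574324) and TNF (31575565 to 31578336) and 2188 bases between TNF and LTB (31580525 to 31582522), where LTB is read from the other strand. TNFSF18 is on chromosome 1 (173039202 to 173050941), TNFSF10 on chromosome 3 (172505508 to 172523475), TNFSF15 on chromosome 9 (114784652 to 114806039), TNFSF13B on chromosome 13 (108251240 to 108308484) and TNFSF12 on chromosome 17 (7548508 to 7557890). TNFSF9 (6531026 to 6535924) and TNFSF14 (6661253 to 6670588) are both on chromosome 19. All are annotated as protein coding in GENCODE 44. TNFSF18, LTA, TNFSF10, TNFSF12 and TNFSF13B overlap an annotated lncRNA or pseudogene on the opposite strand, TNFSF13B also a lncRNA on its own strand, and the strand setting of the authors' counting is not given in the sources at hand, so reads of these overlaps cannot be told apart. TNFSF12 also shares its strand with the read-through gene TNFSF12-TNFSF13, which held 0 counts in all 8 libraries. How reads shared by both genes were counted is not given. These 0 counts therefore do not show that the read-through is absent, and the level of TNFSF12 may lack such reads.

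RefSeq start sites (GRCh38.p14) were available for 9 of the 10 genes, all but TNFSF12, and the 250 bases before and 50 bases after each start were searched for letters of known sites. The NF-κB site was taken in a loose form (GGG and TCC with any 4 bases between) and a strict form (GGG, any 2 bases, then TTTCC), the AP-1 site as TGANTCA, all on both strands, and the TATA box as TATAAA on the gene's strand. A strict NF-κB match is by its letters also a loose one. The strict form was found for LTB alone among the 9 (1.92% of 27305 promoters of this length hold it) and the loose form for TNF, LTA and LTB (22.2% of all). TGANTCA was found for TNFSF14 and TNFSF15 (7.76% of all), and TATAAA for TNF, LTA, TNFSF9 and TNFSF10 (7.71% of all). The TNFSF15 window (114792481 to 114792780, minus strand) lay inside the annotated gene, which begins at 114806039. Windows of TNFSF14 (minus strand, up to 6670410) and TNFSF13B (plus strand, from 108269379) also lay inside their genes, which begin at 6670588 and 108251240. For these genes the bases before the annotated beginning were not searched. A match describes letters and is not a measured site, and no match speaks only for these letters in this window. Sequence is given for the ligands with the largest fold changes, TNFSF18, TNF, LTB and TNFSF10. For TNF (chr6:31575365-31575564, plus strand) and TNFSF18 (chr1:173050942-173051141, minus strand) it is the 200 bases before the start, and for LTB (chr6:31582492-31582521, minus strand) and TNFSF10 (chr3:172523444-172523473, minus strand) the 30 bases around a match. Capitals mark matches: the loose NF-κB form at -101 to -92 and TATAAA at -29 to -24 in TNF, the strict form read on the other strand at -86 to -77 in LTB, and TATAAA at -31 to -26 in TNFSF10, counted from the start site. TNFSF18 has no match.
TNF: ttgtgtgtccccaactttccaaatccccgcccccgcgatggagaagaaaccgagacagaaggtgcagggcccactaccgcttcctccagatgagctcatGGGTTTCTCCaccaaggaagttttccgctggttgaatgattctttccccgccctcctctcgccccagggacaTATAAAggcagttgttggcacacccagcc
LTB: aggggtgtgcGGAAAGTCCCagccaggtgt
TNFSF10: ttcctcactgacTATAAAagaatagagaag
TNFSF18: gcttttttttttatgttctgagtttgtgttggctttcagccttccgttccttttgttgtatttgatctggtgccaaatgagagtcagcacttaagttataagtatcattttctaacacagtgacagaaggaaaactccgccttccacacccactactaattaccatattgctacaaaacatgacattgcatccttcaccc

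IL1β was followed by a rise of 2 of the 10 ligand mRNAs, TNFSF18 and TNFSF10, and none fell. Rose and fell mean a Benjamini-Hochberg adjusted p under 0.05 in the edgeR quasi-likelihood test (edgeR adjusted p), where 0.929% of the 15062 genes tested rose and 0.0598% fell. Another 6 ligands were tested and did not pass, and LTA and TNFSF13B were left out by the filter on low counts. The mean was higher with IL1β for 9 of the 10 and lower for TNFSF15 alone. Among the 8 tested, TNFSF18, TNFSF10, TNF, LTB and TNFSF9 were higher in every IL1β library than in any untreated one, which held for 4.6% of all tested genes, and no ligand showed the opposite (3.41% of all). DESeq2 called 5 ligands higher (2.81% of all tested genes) and limma-voom 2 (1.21%). The median log2 fold change was 2.14 over the 8 tested ligands and -0.02 over all tested genes. TNFSF18, TNF, LTB and TNFSF14 reached the limit for testing, 0.496 CPM (10 counts in a library of median size), in all 4 IL1β libraries and in at most 1 untreated library, so they were tested through the group in which they are high, and these counts and medians over the tested ligands describe and support nothing further.

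**Figure D1:**
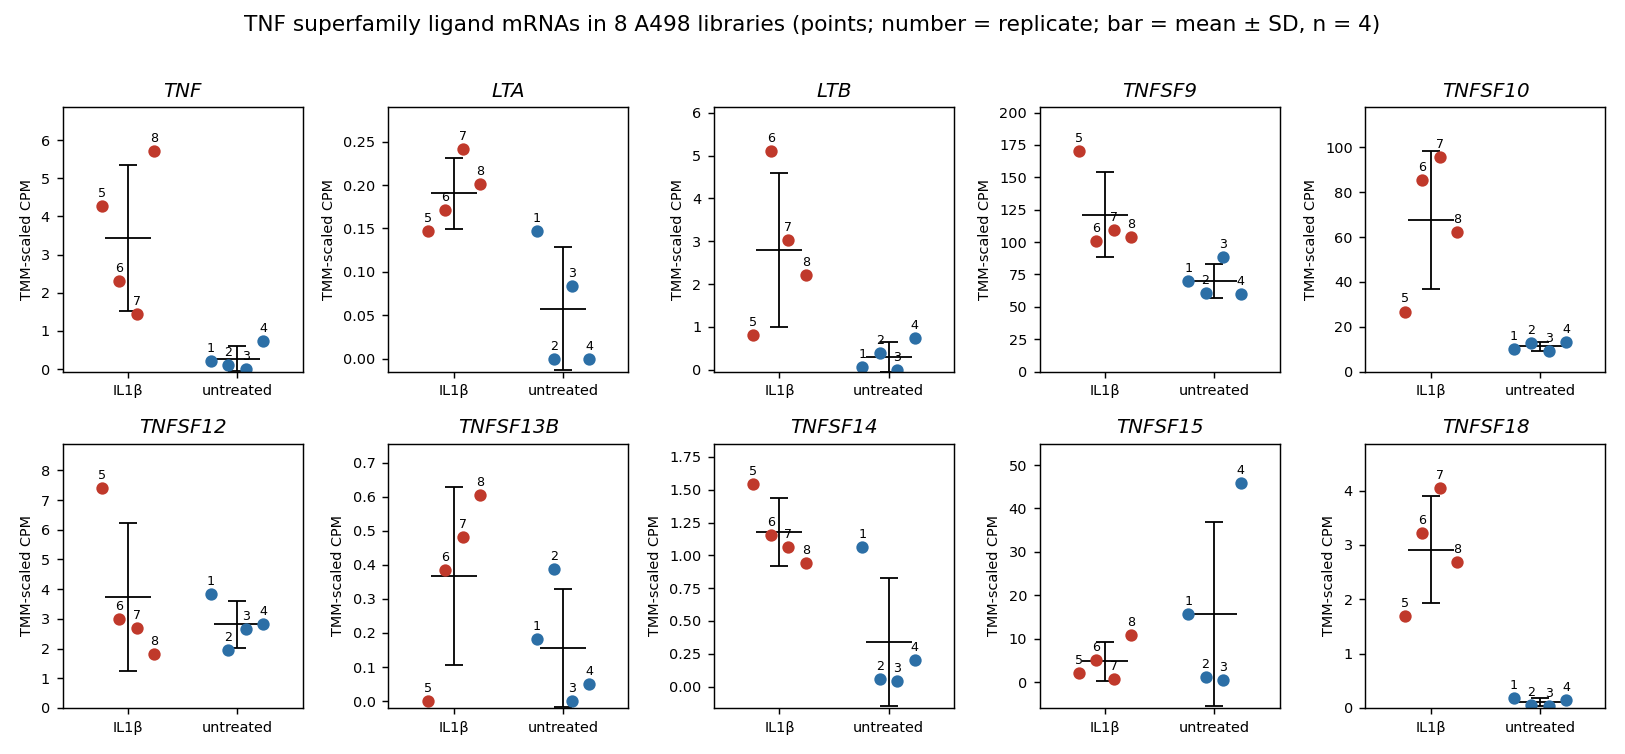
TMM-scaled CPM (vertical axes, each panel with its own scale) of the 10 ligand mRNAs in the 4 IL1β libraries (red, left) and the 4 untreated libraries (blue, right). Numbers are replicates and bars the mean ± SD (n = 4), and the groups stand apart most widely for TNFSF18 (1.69 to 4.05 CPM with IL1β, 0.0420 to 0.183 CPM untreated), while TNFSF15 spreads from 0.504 to 45.8 CPM within the untreated cultures.

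The resting cells held mainly 1 of these mRNAs. TNFSF9, the ligand of the T cell costimulatory receptor 4-1BB, had 74.2 ± 20.0 CPM per kilobase of exon with IL1β and 42.7 ± 8.02 untreated (SD, n = 4 each), which was 73.7% and 86.8% of the summed level per kilobase of the 10. TNFSF10 came next, at 19.6 ± 8.88 CPM per kilobase with IL1β and 3.28 ± 0.582 untreated. With IL1β the order per kilobase then ran TNF (2.05), LTB (1.82), TNFSF18 (1.06), TNFSF12 (0.819), TNFSF15 (0.613), TNFSF14 (0.246), TNFSF13B (0.120) and LTA (0.110). Here TNFSF9 and TNFSF10 each stood clear of the next lower gene in all libraries, whereas each later neighbour overlapped the one before it. In untreated cells it ran TNFSF15 (2.03), TNFSF12 (0.618), LTB (0.197), TNF (0.161), TNFSF14 (0.0712), TNFSF13B (0.0508), TNFSF18 (0.0392) and LTA (0.0332), and only TNFSF9 stood clear of its next neighbour. TNFSF18 thus took rank 5 of 10 with IL1β and rank 9 of 10 untreated. These ranks were not tested.

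TNFSF18 encodes the ligand of GITR, a costimulatory receptor of T cells. It had 23, 75, 84 and 40 counts in IL1β replicates 5 to 8 and 5, 1, 1 and 3 counts in untreated replicates 1 to 4. Scaled for depth this was 1.69, 3.22, 4.05 and 2.69 CPM with IL1β, against 0.183, 0.0554, 0.0420 and 0.149 CPM untreated. The gene was therefore near the limit of detection in every untreated library and present at a low level in every IL1β library, without overlap. Its log2 fold change was 4.65 (SE 0.53, edgeR adjusted p = 0.00566). In an exact permutation test (two-sided, difference of means) p was 0.0286, the smallest that 4 libraries against 4 allow. TNFSF18 passed in all 16 alternative settings and with any 1 library left out (adjusted p of 0.00232 to 0.0377). The 10 counts of the untreated group make the size of the fold imprecise. The mRNA of its receptor GITR (TNFRSF18) had 2 counts over the IL1β libraries, all in replicate 6, and 4 counts over the untreated libraries, all in replicate 1. Among 13566 genes that were tested and averaged at least 1 CPM, the levels most like those of TNFSF18 over the 8 libraries were those of the corepressor TLE3 (Pearson r of log2 CPM 0.993), the mitochondrial iron transporter SLC25A28 (0.988) and the monocyte chemokine CCL8 (0.988), a likeness over 8 points that are split by treatment. TLE3 stood at 132 ± 17.8 CPM with IL1β and 47.3 ± 5.13 CPM untreated (SD, n = 4 each).

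TNFSF10 encodes TRAIL, which can start apoptosis through the death receptors TNFRSF10A and TNFRSF10B. It had 26.8, 85.5, 95.7 and 62.4 CPM in IL1β replicates 5 to 8, against 10.1, 12.7, 9.12 and 13.2 CPM in untreated replicates 1 to 4. The untreated cultures lay close together, and the lowest IL1β value, that of replicate 5, was still above all of them. The log2 fold change was 2.58 (SE 0.37, edgeR adjusted p = 0.0145), on means of 67.6 ± 30.6 CPM with IL1β and 11.3 ± 2.002 CPM untreated (SD, n = 4 each). The call was lost when any of 4 libraries was left out: the edgeR adjusted p was 0.0510 without IL1β replicate 6, 0.0510 without IL1β replicate 8, 0.0581 without untreated replicate 2 and 0.0587 without untreated replicate 3. Over all tested genes fewer rose in these fits too, 42, 38, 58 and 68 in this order, against 140 with all libraries. The fold of TNFSF10 moved little, between 2.37 and 2.85 on the log2 scale over all libraries left out in turn. Without IL1β replicate 5 its adjusted p was 7.0e-04. The levels most like those of TNFSF10 over the 8 libraries were those of the antiviral helicase-like gene ZNFX1 (Pearson r 0.997), of CASP10, an initiator caspase of death receptors (0.990), and of the guanylate-binding protein GBP4 (0.989). GBP4 stood at 16.02 ± 8.70 CPM with IL1β and 2.02 ± 0.338 CPM untreated (SD, n = 4 each).

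**Figure D2:**
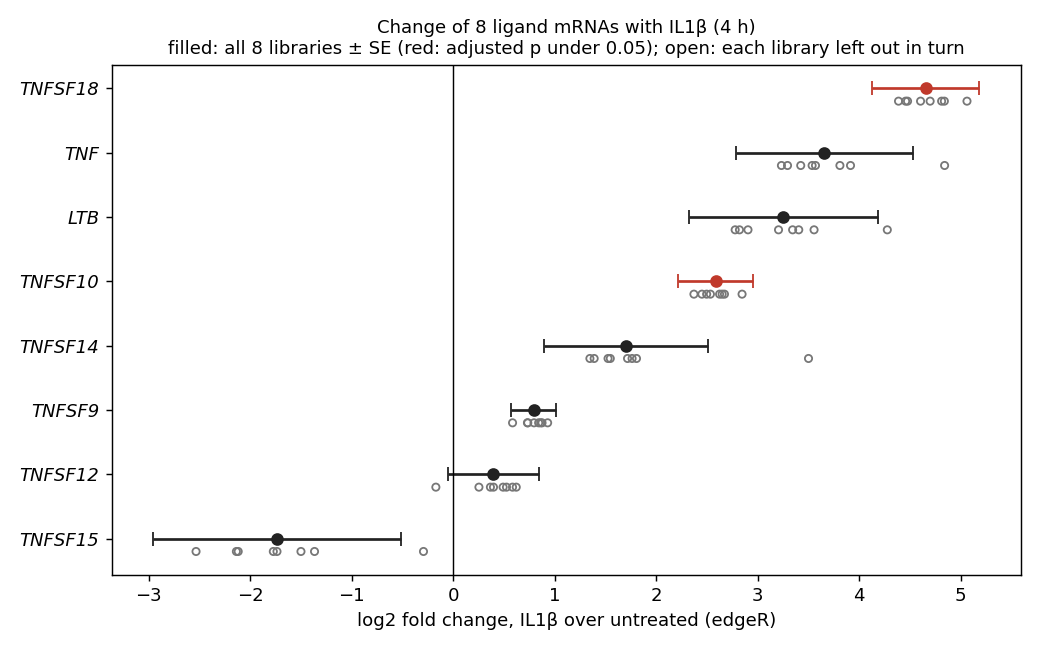
Log2 fold change of IL1β over untreated (horizontal axis, edgeR) for the 8 ligands tested. Filled points are the values with all 8 libraries and their standard errors, red where the adjusted p is under 0.05 (TNFSF18 at 4.65 and TNFSF10 at 2.58), and open circles leave out each library in turn, which moves TNFSF14 furthest upward (to 3.50) and takes TNFSF12 below 0 (to -0.17).

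TNF and LTB are neighbours on chromosome 6 and encode the founding cytokine of the family and the membrane-anchored chain of the lymphotoxin heterotrimer. TNF had 58, 54, 30 and 85 counts in IL1β replicates 5 to 8 and 6, 2, 0 and 15 counts in untreated replicates 1 to 4. The groups did not overlap at 4.26, 2.32, 1.45 and 5.71 CPM with IL1β, against 0.220, 0.111, 0 and 0.747 CPM untreated, and untreated replicate 4 was the highest of its group. The log2 fold change of TNF was 3.66 (SE 0.87), with an unadjusted p = 0.00201 and an edgeR adjusted p = 0.104, so it did not pass. DESeq2 called it (adjusted p = 2.6e-04), as did edgeR without a filter (adjusted p = 0.0225, where 0.72% of all genes rose) and without untreated replicate 4 (log2 fold change 4.84, adjusted p = 0.0489, where 0.791% rose). The fit without untreated replicate 4 leaves out the highest untreated value, so its call supports nothing further. With limma-voom the adjusted p of TNF was 0.0843.

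LTB had 0.808, 5.10, 3.04 and 2.22 CPM in IL1β replicates 5 to 8, from 11, 119, 63 and 33 counts. In untreated replicates 1 to 4 it had 0.0734, 0.388, 0 and 0.747 CPM, from 2, 7, 0 and 15 counts. The groups did not overlap, but IL1β replicate 5 lay only just above untreated replicate 4. Its log2 fold change of 3.25 (SE 0.93, edgeR adjusted p = 0.186) did not pass, and of the 15 alternatives that could test it DESeq2 alone called it (adjusted p = 0.00861). Among IL1β libraries the order differed between these neighbours, since replicates 8 and 5 were highest for TNF and replicates 6 and 7 for LTB. LTA, which encodes the secreted lymphotoxin chain, had 2, 4, 5 and 3 counts in IL1β replicates 5 to 8 and 4, 0, 2 and 0 counts in untreated replicates 1 to 4. Its lowest IL1β level exceeded its highest untreated one by only 2.0e-04 CPM, less than 1 count is worth, and the exact two-sided permutation test gave p = 0.0286. LTA was left out of the edgeR fit by the filter on low counts, and the fit without that filter gave a log2 fold change of 1.55 (SE 1.12, edgeR adjusted p = 0.682), which did not pass.

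The costimulatory ligand TNFSF9 was the most abundant of the 10, and its mean was 1.74 times as high with IL1β as untreated. It had 170, 101, 110 and 104 CPM in IL1β replicates 5 to 8, against 69.8, 60.9, 88.3 and 60.2 CPM in untreated replicates 1 to 4. All IL1β libraries lay higher, with replicate 5 far above the other three. The log2 fold change was 0.80 (SE 0.22, unadjusted p = 0.00521, edgeR adjusted p = 0.171) and did not pass. It was 0.59 without IL1β replicate 5 and 0.62 with libraries scaled by their size only, a scaling that moved the median of all tested genes to -0.18. DESeq2 alone put it past the threshold (adjusted p = 0.0485).

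TNFSF14 encodes LIGHT, a costimulator of T cells. It had 1.54, 1.16, 1.06 and 0.941 CPM in IL1β replicates 5 to 8, against 1.06, 0.0554, 0.0420 and 0.199 CPM in untreated replicates 1 to 4. The groups overlapped through untreated replicate 1, with 29 counts where the other untreated libraries had 1, 1 and 4. The log2 fold change was 1.70 (SE 0.81, edgeR adjusted p = 0.503) with all libraries and 3.50 (adjusted p = 0.0473) without untreated replicate 1, where 0.706% of all genes tested rose. With IL1β replicate 5 left out as well it was 3.38 (adjusted p = 0.0241), where 2.5% of all genes tested rose. Both fits leave out the only untreated library that overlapped the IL1β group, so their calls support nothing further.

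TNFSF15 encodes TL1A, a ligand of the death domain receptor TNFRSF25 best known from endothelial and myeloid cells. It varied more between cultures of 1 group than between the groups, with 2.20, 5.19, 0.724 and 10.96 CPM in IL1β replicates 5 to 8, against 15.7, 1.22, 0.504 and 45.8 CPM in untreated replicates 1 to 4. The highest untreated library had 90.8 times the level of the lowest one, and the corresponding ratio was 15.1 among IL1β libraries. A log2 fold change of -1.73 (SE 1.22, edgeR adjusted p = 0.699) did not pass, and it was -0.29 without untreated replicate 4. That library also had the highest summed level of 5 fibroblast marker genes, 890 CPM against 45.2 to 341 CPM in the other 7, with COL1A1 at 680 CPM, while none of the 5 was at 0 in all libraries. The sum was only 54.7 CPM in untreated replicate 1, the next highest untreated library for TNFSF15. In IL1β libraries this sum was 77.1 to 341 CPM, with the highest in replicate 6. IL1β replicate 8, the highest of its group for TNFSF15, had a sum of 118 CPM. Whether these genes and TNFSF15 share a source was not tested, and in bulk RNA fewer cells of a type and less RNA per cell cannot be told apart.

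TNFSF12 encodes TWEAK, the ligand of TNFRSF12A (Fn14), which is known for its effects on injured renal tubules. It had 7.42, 3.003, 2.70 and 1.81 CPM in IL1β replicates 5 to 8, against 3.85, 1.94, 2.65 and 2.84 CPM in untreated replicates 1 to 4. The groups overlapped, and the set-apart IL1β replicate 5 was the highest of the 8. A log2 fold change of 0.39 (SE 0.45, edgeR adjusted p = 0.822) did not pass and became -0.17 without IL1β replicate 5. TNFSF13B encodes BAFF, a survival factor of B cells, and was close to absent with 0, 9, 10 and 9 counts in IL1β replicates 5 to 8 and 5, 7, 0 and 1 counts in untreated replicates 1 to 4. It too was left out of the edgeR fit by the filter, and without the filter its log2 fold change was 1.28 (SE 1.04, edgeR adjusted p = 0.682). Its means of 0.368 ± 0.261 CPM with IL1β and 0.155 ± 0.173 CPM untreated gave p = 0.286 in the exact two-sided permutation test (SD, n = 4 each).

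Most receptors of these ligands could be followed in the same cells, and none of those tested passed. Of 17 receptor genes listed 16 had a row and 1 was not analysed here. The lymphotoxin receptor gene LTBR is not among the 16, so the counts below do not cover it. Of the 16, 10 were tested, and 0 rose and 0 fell in edgeR, although 4 were higher at an unadjusted p under 0.05 (6.23% of all tested genes). DESeq2 called 2 (2.81% of all tested genes) and limma-voom 1 (1.21%). The median log2 fold change of the 10 tested receptors was 0.32. For TRAIL, the death receptor TNFRSF10B had 544, 360.0, 376 and 353 CPM in IL1β replicates 5 to 8, against 349.5, 226, 174 and 235 CPM in untreated replicates 1 to 4. TNFRSF10A had 51.1 to 66.8 CPM with IL1β and 21.3 to 43.6 CPM untreated. Both were higher in every IL1β library, with log2 fold changes of 0.73 (edgeR adjusted p = 0.278) and 0.88 (adjusted p = 0.129).

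The soluble decoy receptor TNFRSF11B (osteoprotegerin), which binds TRAIL as well as RANKL, had the largest log2 fold change of the receptors tested. It stood at 103, 255, 259 and 283 CPM in IL1β replicates 5 to 8, against 12.8, 41.7, 41.4 and 74.2 CPM in untreated replicates 1 to 4. Its log2 fold change of 2.40 (SE 0.50, edgeR adjusted p = 0.0643) did not pass, but it was called by DESeq2 (6.2e-05) and limma-voom (0.0493) and by edgeR without IL1β replicate 5 (0.0275). A membrane decoy, TNFRSF10D, was high in both set-apart libraries. It had 464 CPM in IL1β replicate 5 and 32.4 to 35.1 CPM in the other IL1β libraries, against 452 CPM in untreated replicate 1 and 34.1 to 58.4 CPM in the other untreated ones. The receptor 4-1BB of TNFSF9, TNFRSF9, had 52.3 to 88.4 CPM with IL1β and 8.57 to 47.7 CPM untreated, a log2 fold change of 1.12 (adjusted p = 0.368). The TWEAK receptor TNFRSF12A had 273 to 413 CPM with IL1β and 210.0 to 366 CPM untreated. TNFRSF13B and TNFRSF17, which bind BAFF, had 0 counts in all 8 libraries.

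**Figure D3:**
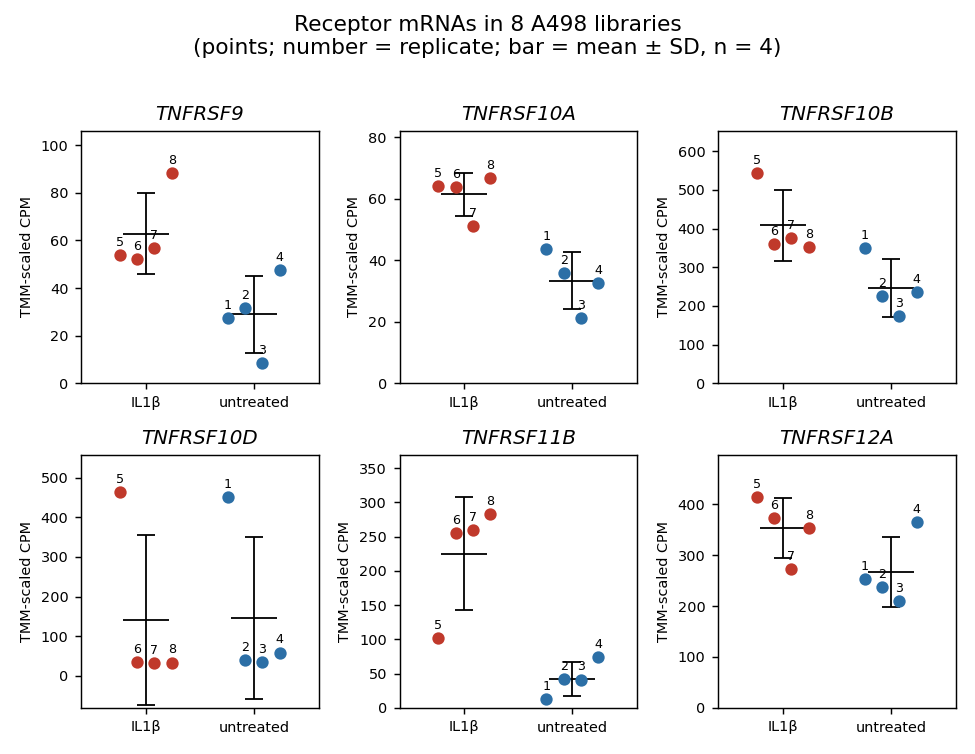
TMM-scaled CPM (vertical axes, each panel with its own scale) of 6 receptor mRNAs in the 4 IL1β libraries (red, left) and the 4 untreated libraries (blue, right), with replicate numbers and the mean ± SD (n = 4). TNFRSF10A, TNFRSF10B, TNFRSF11B and TNFRSF9 lie higher in every IL1β library, which held for 4.6% of all tested genes. TNFRSF10D reaches 464 CPM in IL1β replicate 5 and 452 CPM in untreated replicate 1.

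Among the 9 other genes of the ligand family 4 were tested, and 0 rose and 0 fell in edgeR, DESeq2 or limma-voom, none with an unadjusted p under 0.05 in edgeR. CD70, a costimulator of T cells that is known to be high in ccRCC, had 242, 248, 226 and 214 CPM in IL1β replicates 5 to 8, against 105, 154, 191 and 214 CPM in untreated replicates 1 to 4. The groups did not overlap, yet IL1β replicate 8 and untreated replicate 4 all but met, and the log2 fold change of 0.49 (SE 0.22) had an edgeR adjusted p = 0.469. FASLG, CD40LG and TNFSF11, which encode the Fas ligand, the CD40 ligand and RANKL, had 0 counts in all 8 libraries. Of 9 genes that shed, cleave or mature the ligands, or control this, all 9 were tested and 0 rose or fell in edgeR, DESeq2 or limma-voom, with 1 at an unadjusted p under 0.05 in edgeR. ADAM17, the protease that releases TNF, had 137 to 244 CPM with IL1β and 134 to 172 CPM untreated (log2 fold change 0.44, SE 0.20, adjusted p = 0.468). RHBDF2, a partner of ADAM17, had 145 to 344 CPM with IL1β and 65.7 to 199 CPM untreated (log2 fold change 0.94, SE 0.39, adjusted p = 0.421).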

How the data were processed

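Reads of stranded libraries were trimmed by the authors, mapped with STAR 2.5.3a (hg38) and summarised by featureCounts, and the table deposited holds raw counts with one column per library. Which annotation, featureCounts version and strand option they used is not given in the sources at hand. Of 59050 entries, 27 named by a date (0.197% to 0.236% of a library's counts) were left out. Libraries were checked pairwise for duplicates, and the lowest chi-square per gene was 13.4.

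The comparison used R 4.3.3 and edgeR 4.0.16 (filterByExpr, TMM factors, glmQLFit and glmQLFTest on the condition), with Benjamini-Hochberg adjustment over the 15062 genes tested and a threshold of 0.05. A standard error is the log2 fold change divided by the square root of F. Single values were also compared by an exact permutation test over 70 groupings. P-values weigh the difference between the 2 groups against the variation between these cultures, without pairing. Correlations used log2 CPM with a prior count of 2. Levels per kilobase used GENCODE 44 exons. Alternatives were RLE, upper-quartile or no factors, DESeq2 1.42.0, limma-voom 3.58.1, no filter, 1 CPM in 4 libraries, each library left out, and both set-apart libraries left out. The fit was tested on simulated data. The members and lists were chosen with earlier results of these data known. Named genes were the 10 ligands, members of each list that passed, receptors of ligands that passed, the 3 genes most like each ligand that passed, GAPDH and ACTB. Other genes named (CD70, ADAM17, RHBDF2, COL1A1, other receptors and markers) were chosen after their values were seen.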

Additional observations from a re-analysis of the deposited data

Results flagged for a closer look

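Of 20 groups of 4 libraries checked for the 10 ligands, 2 held a library far from the other three by Dixon's test, and chance gives about 1 in 20. TNFSF9 in IL1β replicate 5 (170 CPM, the next library at 110) had a gap of 0.876 of the whole range of its group. TNFSF14 in untreated replicate 1 (1.06 CPM, the next library at 0.199) had a gap of 0.846. These are the libraries that stood apart on the first principal component, and the part of that in both values was not tested.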

How the results depend on the processing

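The number of ligands that rose was 2 and became 5 in DESeq2 (TNF, LTB and TNFSF9 added) and 1 to 3 with each library left out in turn: TNFSF10 was lost without IL1β replicates 6 or 8 or untreated replicates 2 or 3, TNFSF14 was added without untreated replicate 1, and TNF without untreated replicate 4. In the fits that lost TNFSF10, 42, 38, 58 and 68 of all tested genes rose in this order, against 140 with all libraries. No ligand fell under any of the 16 alternatives. The number of receptors that rose was 0 and became 2 in DESeq2 (2.81% of all genes tested), 1 in limma-voom (1.21%) and 1 without the filter (0.72%). It was 3 without both set-apart libraries (TNFRSF10A, TNFRSF10B and TNFRSF11B), where 2.5% of all genes tested rose, and 0 to 1 with each library left out. Without both set-apart libraries 1 processing gene rose, RHBDF2 (edgeR adjusted p = 0.0191). The log2 fold change of TNFSF12 reversed to -0.17 without IL1β replicate 5, within a range of -0.17 to 0.62 over the libraries left out. The cause of these shifts was not tested. Over all tested genes, 140 rose and 9 fell in edgeR, 423 and 109 in DESeq2, and 94 and 13 with library size only. With 1 library left out, 38 (without IL1β replicate 8) to 218 (without IL1β replicate 5) genes rose. LTB was below the limit of 1 CPM in 4 libraries and has no value there. No paired analysis was made because the labels do not say which cultures form a pair. Variation shared within a pair therefore counts as variation between cultures in these tests, which limits what a result that did not pass can say. LTA and TNFSF13B rest on 14 and 28 counts over the IL1β libraries and 6 and 13 over the untreated ones, and the fit without the filter, the only one that tested them, called neither.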
